A study of Mus musculus with 12 samples.

Results

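The effect of minocycline on the retina after blockade of PDGFRβ was read from 6 of the 12 RNA-Seq libraries of the study, 3 from APB5 retinas and 3 from APB5+Mino retinas. All mice were WT C57BL/6J of mixed sexes, and every retina was collected at P28. Both groups received 30 µg of APB5, a rat monoclonal antibody against mouse PDGFRβ, by s.c. injection at P1. The APB5+Mino group was in addition given minocycline i.p. each day from P5 to P27, at 45 mg/kg. The IgG and IgG+Mino groups, which received control IgG in place of APB5, are given only as a reference. Of the 50559 genes in the count table, the 46180 on autosomes or the mitochondrial genome were considered, and 19193 of these passed edgeR's filter on low counts and were tested. The antibody acts on every cell that carries the receptor and minocycline acts systemically, so the RNA of the whole retina is read, not that of 1 cell type.

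Pericytes are the mural cells of capillaries. Endothelial cells release PDGFB, which recruits pericytes through PDGFRβ, and retinal vessels that form without pericytes leak, dilate and attract microglia and macrophages. Minocycline is a tetracycline antibiotic that is widely used to dampen microglial activation, and as a class the tetracyclines also bind ribosomes, including those of mitochondria.

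Total counts ranged from 53392207 to 58852253 in APB5 and from 52740545 to 57160704 in APB5+Mino libraries, so that 3 counts, taken as the floor, correspond to 0.051 to 0.0569 CPM. CPM values are counts scaled to the library sizes after edgeR's TMM normalization. Retinal markers were abundant in all 6 libraries, with the rod transducin gene Gnat1 at 2800 CPM or more and glutamine synthetase (Glul) at 1570 CPM or more. APB5 replicate 3 stood apart from the other libraries. It scored −118.4 on the first principal component of the 6 libraries (66.1% of the variance), against −21.8 to 55.4 in the others. Values without it are given below for many of the gene lists and named genes, and those given without such a value may also depend on it. For APB5+Mino against APB5, leaving it out moved the log2 fold change of Fcrls from −5.23 to −3.32. That of Cfi moved from −3.66 to −2.66 and that of Cebpb from −3.16 to −2.42. The median of the metalloproteinase and inhibitor genes moved from −0.74 to −0.11. One library of each group, both numbered 3, had high Xist, and only genes outside the X and Y chromosomes are described.

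Pdgfrb encodes the receptor that APB5 blocks and had 15.4, 16.3 and 38 CPM in APB5 and 15.1, 14.4 and 14.6 CPM in APB5+Mino retinas. The difference did not pass the test (log2 fold change −0.68, SE 0.35, adjusted P = 0.208 by the quasi-likelihood, QL, test of edgeR, with P values of all tested genes adjusted after Benjamini and Hochberg), and it was −0.11 without APB5 replicate 3. In RNA of a whole tissue, fewer cells of a type and less RNA per cell cannot be told apart, and this holds for each gene below.

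Genes were called where the adjusted P reached 0.05 and the log2 fold change reached 1 in size. By this rule 157 genes (0.818% of those tested) were upregulated and 162 (0.844%) were downregulated in APB5+Mino against APB5 retinas. At any fold, 541 (2.82%) and 399 (2.08%) passed the adjusted P. All 319 were genes whose 3 APB5+Mino values lay entirely above or below the 3 APB5 values. Such separation was common, since 4507 genes (23.5%) lay entirely higher and 4429 (23.1%) entirely lower. DESeq2 called 477 genes (2.49%) higher and 969 (5.05%) lower, and shared 150 and 152 calls with edgeR. The numbers given for each list below are to be read against these shares of all tested genes. Because the APB5 and APB5+Mino libraries with the same replicate number deviated together, the fit was repeated with the number as a block. No gene was then called by edgeR, the smallest adjusted P being 0.0641. With that block 691 genes were higher and 1015 lower at an unadjusted P of at most 0.05 with the same fold, against 603 and 1251 without it, and DESeq2 with the block called 512 and 814. All 319 called genes kept their direction under the block. This followed from their separation, since each pair then differs in the same direction, and it adds no support. Their blocked adjusted P was at that smallest value for 269 of them and at most 0.0734. The blocked adjusted P of each called gene named below was 0.0641 unless another is given. Without APB5 replicate 3 edgeR called 361 genes higher and 497 lower, without APB5 replicate 1 it called 0 and 1, without APB5 replicate 2 it called 673 and 1021, and without any one of the APB5+Mino libraries it called none in either direction.

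A small set of endothelial and mural genes fell in APB5+Mino retinas to levels within or below the range of IgG retinas. Glycam1, a mucin that endothelium displays to L-selectin on leukocytes (chromosome 15, 103471186 to 103473515 on GRCm39), had 4.77, 4.78 and 6.39 CPM in the 3 APB5 retinas. It had 0.0358, 0.0391 and 0.0188 CPM in APB5+Mino retinas, at most 2 counts in a library. With 5 counts in all against 954, the pooled level was lower by a ratio of 173 (95% exact interval 73.7 to 533, counting error only, adjusted P = 0.00316 by the edgeR QL test), and its values in IgG retinas were 0.227, 0.0875 and 0.484 CPM. No other gene had so small an adjusted P. The 250 bases before its start (15:103473509-103473758 of GRCm39, minus strand, from RefSeq and matched to the genome) are shown because they belong to the gene with the strongest call. Capitals mark the single match to the STAT-binding GAS element TTCNNNGAA, which 6.0% of the 13391 tested genes with a listed promoter hold in the same window and 5.13% of the 117 downregulated ones.

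Glycam1: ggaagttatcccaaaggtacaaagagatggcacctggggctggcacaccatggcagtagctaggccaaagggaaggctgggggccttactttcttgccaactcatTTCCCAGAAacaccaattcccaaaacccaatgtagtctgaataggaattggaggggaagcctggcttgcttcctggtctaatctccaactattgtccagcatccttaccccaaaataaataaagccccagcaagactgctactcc

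Vwf, the clotting factor stored in endothelial cells, had 17.4, 17.6 and 22.7 CPM in APB5 and 6.96, 5.34 and 4.81 CPM in APB5+Mino retinas (log2 fold change −1.76, SE 0.20, adjusted P = 0.043). Cldn5, the main claudin of the blood-retina barrier, had 22.1, 17.5 and 22.3 CPM against 7.48, 6.01 and 5.96 CPM (−1.68, SE 0.16, adjusted P = 0.0417). Ndufa4l2, a hypoxia-inducible mitochondrial protein enriched in pericytes, had 13.4, 10.3 and 12.1 CPM against 1.97, 1.45 and 1.73 CPM (−2.79, SE 0.20, adjusted P = 0.0203 by the edgeR QL test for all 3). These genes were nearly as high in APB5 replicates 1 and 2 as in replicate 3, and their log2 fold changes without replicate 3 were −1.62, −1.61 and −2.77. Vwf was also lower in IgG+Mino (4.0, 4.11 and 4.19 CPM) than in IgG retinas (6.33, 7.58 and 11.5 CPM). Edn2, a vasoconstrictor peptide gene that retinal stress is known to induce, had 30.0, 37.6 and 85.2 CPM in APB5 and 3.01, 6.24 and 3.85 CPM in APB5+Mino retinas (−3.56, SE 0.49, adjusted P = 0.043). Without replicate 3 its log2 fold change was −2.95. Icam1, the leukocyte adhesion molecule, missed the threshold with 2.80, 2.96 and 9.20 CPM against 0.644, 1.25 and 1.43 CPM (−2.16, SE 0.57, adjusted P = 0.0581 by the edgeR QL test). Without replicate 3 its log2 fold change was −1.36.

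**Figure D1:**
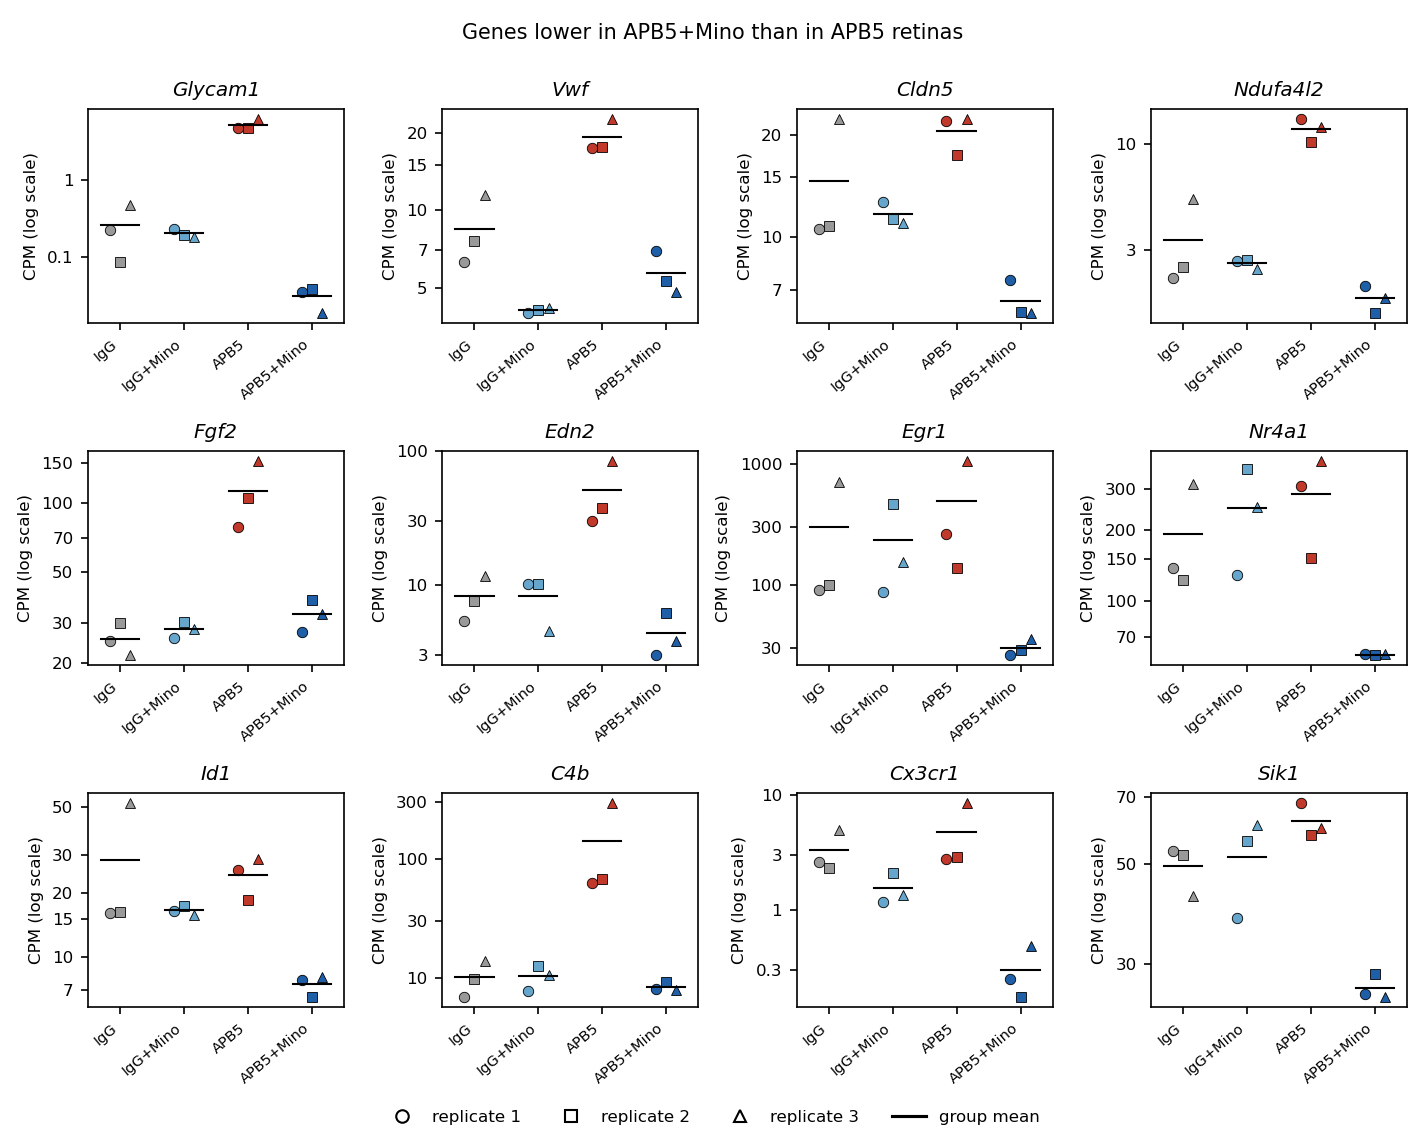
Level of 12 genes called lower in APB5+Mino than in APB5 retinas, in CPM on a log scale, for the 3 libraries of each of the 4 groups (circle, square and triangle for replicates 1, 2 and 3) with the group mean as a bar. In each panel the 3 APB5+Mino values lie below the 3 APB5 values. The highest value is that of APB5 replicate 3 in every panel but Cldn5, Ndufa4l2, Id1 and Sik1.

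Most genes of the vessel wall had smaller differences of the same sign. Of 22 endothelial genes, 0 were called higher and 3 lower, namely Tie1, Cd34 (blocked adjusted P = 0.0642) and Ramp2, and 15 lay entirely lower (68.2%) against 23.1% of all genes. The median log2 fold change of the list was −0.61, against −0.02 for all genes tested, and −0.56 without APB5 replicate 3. Pecam1, a general endothelial marker, stood at 12.4, 12.8 and 11.5 CPM in APB5 and 12.3, 12 and 12.3 CPM in APB5+Mino retinas (log2 fold change −0.02, SE 0.11), and its groups overlapped. Among 22 genes of PDGF signaling and pericytes, Ndufa4l2 and Rgs5 were called lower, 17 lay entirely lower (77.3%) and the median was −0.84 (−0.56 without replicate 3). Rgs5, a G-protein regulator typical of pericytes, had 89, 87.9 and 162 CPM against 44.1, 49 and 40.7 CPM (−1.36, SE 0.26, adjusted P = 0.0461 by the edgeR QL test). Without replicate 3 its log2 fold change was −0.99. The summed CPM of this list overlapped between the groups, at 623 to 876 in APB5 and 666 to 705 in APB5+Mino.

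Of 12 tested contractile genes of smooth muscle, none was called by edgeR and 3 were lower by DESeq2, with a median of −0.79 (−0.28 without replicate 3). Actg2, a smooth muscle actin, did not pass the count filter and had 0.253, 0.0183 and 5.50 CPM in APB5 and 0.0358, 0 and 0.0376 CPM in APB5+Mino retinas, so only replicate 3 was clearly higher. Among 21 genes of the barrier and its Wnt signals, Cldn5 was the only edgeR call, 10 lay entirely lower (47.6%) and 3 entirely higher (14.3%), and the median was −0.50 (−0.31 without replicate 3). One of the 3 higher, chosen after its values were seen, was Tjp1 (0.64, adjusted P = 0.0807 by the edgeR QL test). Of 20 tip-cell, VEGF and angiopoietin genes, Fgf2 and Angpt1 were called lower and the median was −0.51 (−0.27 without replicate 3). Vegfa had 183, 179 and 211 CPM in APB5 and 201, 194 and 186 CPM in APB5+Mino retinas (0.01, SE 0.11, adjusted P = 0.964 by the edgeR QL test), and its groups overlapped.

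Fgf2 and the noncoding transcript on its opposite strand fell together. Fgf2, a growth factor for vessels and neurons (chromosome 3, 37402473 to 37464257, plus strand), had 78.8, 105 and 153 CPM in APB5 and 27.5, 37.8 and 32.7 CPM in APB5+Mino retinas (log2 fold change −1.79, SE 0.26, adjusted P = 0.043). Fgf2os (37389481 to 37403889, minus strand) had 5.59, 6.94 and 12.1 CPM against 0.215, 0.470 and 0.301 CPM (−4.53, SE 0.45, adjusted P = 0.0417 by the edgeR QL test for both). The annotated spans overlap at the 5′ end of Fgf2, and whether counting used the strand is not given in the sources used here, so their reads may not be fully separate. The APB5+Mino values of Fgf2 bordered on the 24.9, 29.9 and 21.7 CPM of IgG retinas.

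Immediate early genes, which cells switch on within minutes of a stimulus, were the list with the most genes called lower. Of 27 genes, 10 were called lower and 0 higher by edgeR, and 18 were lower by DESeq2. Entirely lower were 24 (88.9%), against 23.1% of all genes. The median log2 fold change was −1.90 (−1.73 with the block and −1.34 without replicate 3). Egr1, an early zinc finger factor, had 267, 139 and 1070.0 CPM in APB5 and 26.4, 28.9 and 36.2 CPM in APB5+Mino retinas (−4.04, SE 0.78, adjusted P = 0.0471). Nr4a1, an orphan nuclear receptor, had 307, 152 and 395 CPM against 59.1, 58.6 and 59.1 CPM (−2.29, SE 0.33, adjusted P = 0.043). Junb had 124, 63.1 and 314 CPM against 20.9, 22.4 and 21.4 CPM (−2.97, SE 0.56, adjusted P = 0.0461 by the edgeR QL test for all 3). Without replicate 3 the log2 fold changes of Egr1, Nr4a1 and Junb were −2.74, −1.97 and −2.12. The 3 APB5+Mino retinas were close to each other in these genes, while APB5 retinas spread widely and IgG retinas did too (90.9, 99.4 and 712 CPM of Egr1).

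Klf2 and Klf4, shear-responsive factors of endothelium, were called at −1.73 and −2.21, and Dusp1, Maff, Atf3 and Nr4a3 at −1.71, −2.54, −1.63 and −2.28. Fos, chosen after its values were seen like Npas4, missed the threshold with 140.0, 75.3 and 432 CPM against 28.6, 33.6 and 29.3 CPM (−2.85, SE 0.62, adjusted P = 0.0502 by the edgeR QL test). Without replicate 3 its log2 fold change was −1.82. Npas4, which neuronal activity induces, went another way, with 11.5, 15.5 and 67.2 CPM in APB5 and 25.8, 31.9 and 34.4 CPM in APB5+Mino retinas. Its log2 fold change was −0.06 over the 6 libraries and 1.18 without APB5 replicate 3 (adjusted P = 0.954 and 0.0028 by the edgeR QL test).

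Sik1, a salt-inducible kinase that cAMP and light induce, had the smallest P of this list. It stood at 68.2, 57.9 and 60.0 CPM in APB5 and at 25.8, 28.5 and 25.4 CPM in APB5+Mino retinas (−1.24, SE 0.11, adjusted P = 0.0417). Its IgG values of 53.2, 52.2 and 42.5 CPM were all above those of APB5+Mino retinas. Arrdc3, an arrestin-domain gene outside the lists, behaved alike with 246, 239 and 202 CPM against 107, 107 and 109 CPM (−1.10, SE 0.11, adjusted P = 0.0417 by the edgeR QL test).

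Circadian clock genes had a median near 0. Of 24 clock genes, Ciart was the only edgeR call and DESeq2 called 2 lower. Entirely higher were 3 (12.5%) and entirely lower 8 (33.3%), against 23.5% and 23.1% of all genes. The median was 0.02, with the other sign under 4 of 19 alternatives. Ciart, a repressor of the CLOCK-BMAL1 activator, had 66.1, 56.3 and 55.6 CPM in APB5 and 25.3, 25.6 and 20.9 CPM in APB5+Mino retinas (−1.32, SE 0.12, adjusted P = 0.0417 by the edgeR QL test), with 47.1, 41 and 93 CPM in IgG retinas. Per1 had a log2 fold change of −0.61 (adjusted P = 0.0476 by the same test), short of the fold threshold, and Clock of 0.54. The time of day at which each retina was taken is not given in the sources used here. The 250 bases before the first listed RefSeq start of Ciart (3:95789541-95789790 of GRCm39, minus strand) lie inside its GENCODE span, 95785815 to 95789991. They are shown since clock activators bind the E-box CACGTG, marked in capitals. It occurs 3 times in this window, the nearest 44 to 39 bases before that RefSeq start. At least 1 E-box was in 7.72% of the promoters of all tested genes, 13.7% of those downregulated and 6.19% of those upregulated.

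Ciart: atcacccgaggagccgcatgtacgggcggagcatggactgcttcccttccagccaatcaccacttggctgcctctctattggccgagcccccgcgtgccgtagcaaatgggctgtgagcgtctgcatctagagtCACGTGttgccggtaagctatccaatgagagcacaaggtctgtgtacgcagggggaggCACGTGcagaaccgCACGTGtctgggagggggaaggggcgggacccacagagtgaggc

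BMP and TGF-beta targets fell in part. Of 24 genes, 4 were called lower and none higher, and the median was −1.24, but −0.38 without APB5 replicate 3. The 4 were Ccn1, Id1, Id2 and Id3. Id1, an inhibitor of bHLH factors that BMP signaling induces in endothelium, had 25.5, 18.5 and 28.7 CPM against 7.82, 6.50 and 8.03 CPM (−1.71, SE 0.20, adjusted P = 0.043), and Ccn1, a matricellular YAP target, had 56.6, 20.9 and 64.6 CPM against 6.16, 6.56 and 5.06 CPM (−3.01, SE 0.42, adjusted P = 0.043 by the edgeR QL test for both). These values too were below the lowest IgG value, which was 16 CPM for Id1 and 17.9 CPM for Ccn1.

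Microglial and complement genes had lower levels in APB5+Mino retinas, and the size of the difference was much smaller without APB5 replicate 3. Of 20 microglia and macrophage genes tested, Cx3cr1 and Fcrls were called lower, and DESeq2 called 15 lower. In all, 19 lay entirely lower (95.0%), against 23.1% of all genes. The median log2 fold change of the list was −2.62, and −1.34 without replicate 3. The summed CPM of the list was 98.8, 93.3 and 436 in APB5, 41.2 to 45.3 in APB5+Mino and 76.1 to 121 in IgG retinas. The APB5+Mino sums were thus also below those of IgG retinas, as were the IgG+Mino sums of 59.5 to 71.3. Cx3cr1, the fractalkine receptor of resting microglia, had 2.80, 2.88 and 8.62 CPM against 0.251, 0.176 and 0.489 CPM (−3.84, SE 0.64, adjusted P = 0.0447 by the edgeR QL test). Tyrobp, the signaling adaptor of TREM2, had 2.71, 2.15 and 20.3 CPM against 0.788, 0.509 and 0.583 CPM (−3.70, SE 0.95, adjusted P = 0.0565), and Lyz2, the lysozyme of myeloid cells, had 10.4, 3.61 and 146 CPM against 0.716, 0.548 and 0.602 CPM (−6.37, SE 1.53, adjusted P = 0.0528 by the edgeR QL test for both). Aif1, which encodes Iba1, had 0.832, 0.602 and 5.35 CPM against 0.233, 0.372 and 0.113 CPM (−3.10, adjusted P = 0.071 by the same test). Without replicate 3 the log2 fold changes of Cx3cr1, Tyrobp, Lyz2 and Aif1 were −3.08, −1.90, −3.43 and −1.46.

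Disease-associated microglia genes had no edgeR call and 8 DESeq2 calls among 17 tested and a median of −1.98 (−0.70 without replicate 3). Their most abundant member, Apoe, which Müller glia also express, had 1180.0, 1120.0 and 4790.0 CPM in APB5 and 404, 364 and 444 CPM in APB5+Mino retinas (−2.57, SE 0.61, adjusted P = 0.0522 by the edgeR QL test). Without replicate 3 its log2 fold change was −1.52. IgG retinas had 733, 873 and 973 CPM and IgG+Mino retinas 590, 542 and 641 CPM. Among 5 tested genes of perivascular macrophages and monocytes edgeR called none and DESeq2 called 2 lower, and the median was −2.18 (−1.23 without replicate 3), while 6 neutrophil and T cell genes had a median of −0.68 that turned to 0.37 without replicate 3. Pigment epithelium and melanocyte genes, which mark tissue adjoining the retina, moved with the immune genes, with a summed CPM of 374, 318 and 2120.0 in APB5 and 130.0 to 210.0 in APB5+Mino retinas and a median of −2.32 (−0.63 without replicate 3) over 17 genes. Of their defining markers, Rpe65 overlapped between the groups and Dct and Mlana did not, and their part in the immune results was not tested.

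Complement followed the same order of libraries. C4b had 62.3, 68 and 296 CPM in APB5 and 8.07, 9.39 and 8.01 CPM in APB5+Mino retinas (−4.09, SE 0.68, adjusted P = 0.0461). All 3 APB5 values exceeded the IgG values of 6.96, 9.85 and 14 CPM, and the log2 fold change was −2.94 without replicate 3. C4a, its near-identical copy, had a log2 fold change of 0.20 and stood at 2.53, 2.90 and 3.26 CPM against 3.49, 3.07 and 3.55 CPM, and reads of the pair can be split by the counting. C1qa had 14.2, 13 and 118 CPM against 3.6, 3.41 and 3.78 CPM (−3.77, SE 0.93, adjusted P = 0.055), and C3 had 6.51, 8.74 and 179 CPM against 1.66, 1.60 and 1.96 CPM (−5.22, SE 1.41, adjusted P = 0.0607 by the edgeR QL test). Without replicate 3 the log2 fold changes of C1qa and C3 were −1.92 and −2.11 (adjusted P = 0.000166 and 0.000533 by the edgeR QL test on 5 libraries), well short of the values over all 6. The 9 tested classical components had a median of −3.51 (−1.57 without replicate 3) and 1 call. Among 12 alternative components and regulators, Cfi and Cd59a were called lower. Cfb, a protease of the alternative pathway, had 0.669, 0.602 and 10.8 CPM in APB5 and 0.0358, 0.0196 and 0.0564 CPM in APB5+Mino retinas, 796 against 6 counts in all, and missed the threshold (adjusted P = 0.052 by the same test). Its pooled ratio of 120.0 (95% exact interval 54.9 to 328, counting error only) rests largely on replicate 3. Cd59a, which blocks the membrane attack complex, fell to a like degree without replicate 3 (−1.07), from 54.9, 59.9 and 55.2 CPM to 24.9, 25.9 and 31.2 CPM (−1.06, SE 0.12, adjusted P = 0.043 by the edgeR QL test).

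Of 19 antigen presentation genes, 17 lay entirely lower (89.5%, against 23.1% of all genes) and 13 were lower by DESeq2. By edgeR 2 were called lower, namely the immunoproteasome subunits Psmb8 (−2.23) and Psmb9 (−2.27, blocked adjusted P = 0.0663). The list had a median of −1.81 (−1.11 without replicate 3). The 25 interferon response genes had a median of −1.36 (−0.49 without replicate 3), and Isg15 and Ifi27 were called at −2.76 and −2.36. Isg15, a ubiquitin-like effector, had 2.86, 3.09 and 8.11 CPM against 0.591, 0.509 and 0.921 CPM (SE 0.51, adjusted P = 0.0461 by the edgeR QL test). Irf7, chosen after its values were seen, stood at 0.07 and was not called. Among 9 inflammasome and 14 chemokine and cytokine genes edgeR called none and DESeq2 called 4 and 3 lower. Casp1, the inflammasome protease, had 0.434, 0.475 and 3.45 CPM against 0.143, 0.0979 and 0.0752 CPM (−3.43, SE 1.00, adjusted P = 0.0584 by the edgeR QL test). Without replicate 3 the values of Isg15 and Casp1 were −2.09 and −1.79.

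**Figure D2:**
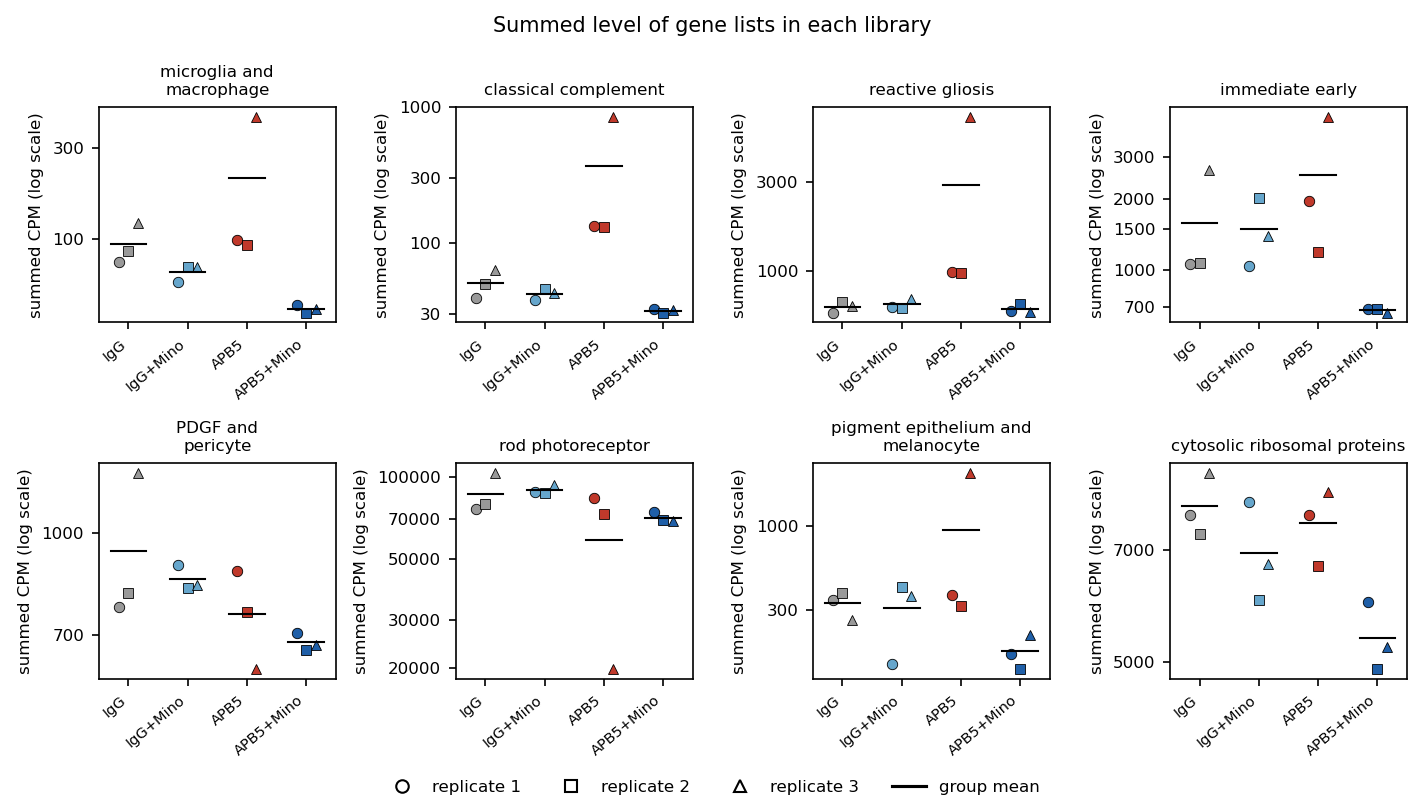
Summed CPM, on a log scale, of 8 gene lists in each library of the 4 groups, with symbols for replicates 1, 2 and 3 and a bar for the group mean. APB5 replicate 3 is far above the other libraries in the microglia, complement, gliosis and pigment epithelium lists and far below them in the rod list, whereas ribosomal protein genes are lower in all 3 APB5+Mino libraries than in any APB5 library.

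Glial stress genes were highest in APB5 replicate 3, and photoreceptor genes did not pass the test. Gfap, the intermediate filament of reactive glia, had 130.0, 147 and 1010.0 CPM in APB5 and 27.9, 39.1 and 27.6 CPM in APB5+Mino retinas (−3.79, SE 0.87, adjusted P = 0.0514), and −2.13 without replicate 3 (adjusted P by the edgeR QL test). Its APB5+Mino values were below the 46.3 to 52.9 CPM of IgG retinas. Of 21 gliosis genes none was called by edgeR and 8 were lower by DESeq2. The groups lay entirely lower in 15 (71.4%), against 23.1% of all genes. The list had a median of −2.16 (−0.79 without replicate 3). Lcn2, a secreted iron-binding protein, had 16.4, 16.6 and 1330.0 CPM against 8.41, 7.42 and 9.19 CPM. Its log2 fold change was −5.79 (adjusted P = 0.08 by the edgeR QL test) and −0.98 without replicate 3. The 19 genes of LIF, gp130 and STAT3 signaling had a median of −0.53 (−0.06 without replicate 3), and homeostatic Müller glia genes of −0.16 over 20.

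The 22 rod genes had a median of 0.23 over all libraries and −0.16 without replicate 3, with 0 calls in either direction by edgeR and by DESeq2. The 14 cone genes likewise turned from 0.11 to −0.20, and the 28 genes of inner retinal neurons stood at −0.12 and −0.03. No direction can be given for photoreceptors from these libraries.

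Lists of stress and growth arrest genes held 1 to 3 edgeR calls each, all lower. Cebpb, a stress and cytokine responsive factor, had 41.3, 24.3 and 97.2 CPM against 5.62, 6.83 and 5.94 CPM (−3.16, SE 0.51, adjusted P = 0.0447 by the edgeR QL test), and was the only edgeR call, beside 5 lower by DESeq2, among 21 genes of the integrated stress response (median −0.69, −0.46 without replicate 3). Hspa5, the main chaperone of the endoplasmic reticulum, had 399, 331 and 538 CPM against 188, 191 and 207 CPM (−1.13, SE 0.20, adjusted P = 0.0461 by the same test). Of 24 heat shock and unfolded protein genes 19 lay entirely lower (79.2%, against 23.1% of all genes). The median of that list was −0.55 (−0.42 without replicate 3). Of 21 cell cycle inhibitor and senescence genes Plk2, Igfbp3 and Gadd45b (blocked adjusted P = 0.0718) were called lower, and the median was −1.03 (−0.51 without replicate 3). Among matrix genes, 42 collagens held 1 call in each direction, Col18a1 lower (−1.31) and Col22a1 higher (2.04), and 22 metalloproteinases and inhibitors none by edgeR and 3 lower by DESeq2. Hypoxia and glycolysis genes had a median of −0.15 and 0 edgeR calls among 28, and DESeq2 called 1 lower. Areg, an EGF receptor ligand, had 6.24, 1.17 and 11.8 CPM against 0.286, 0.137 and 0.132 CPM (−4.88, SE 0.91, adjusted P = 0.0461 by the edgeR QL test), the only edgeR call among 20 MAPK and EGF family genes, of which DESeq2 called 3 lower. Of 16 Notch genes edgeR called none and DESeq2 called 1 higher, and 21 replication-dependent histone genes had a median of −0.76 with none called by edgeR and 4 lower by DESeq2.

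**Figure D3:**
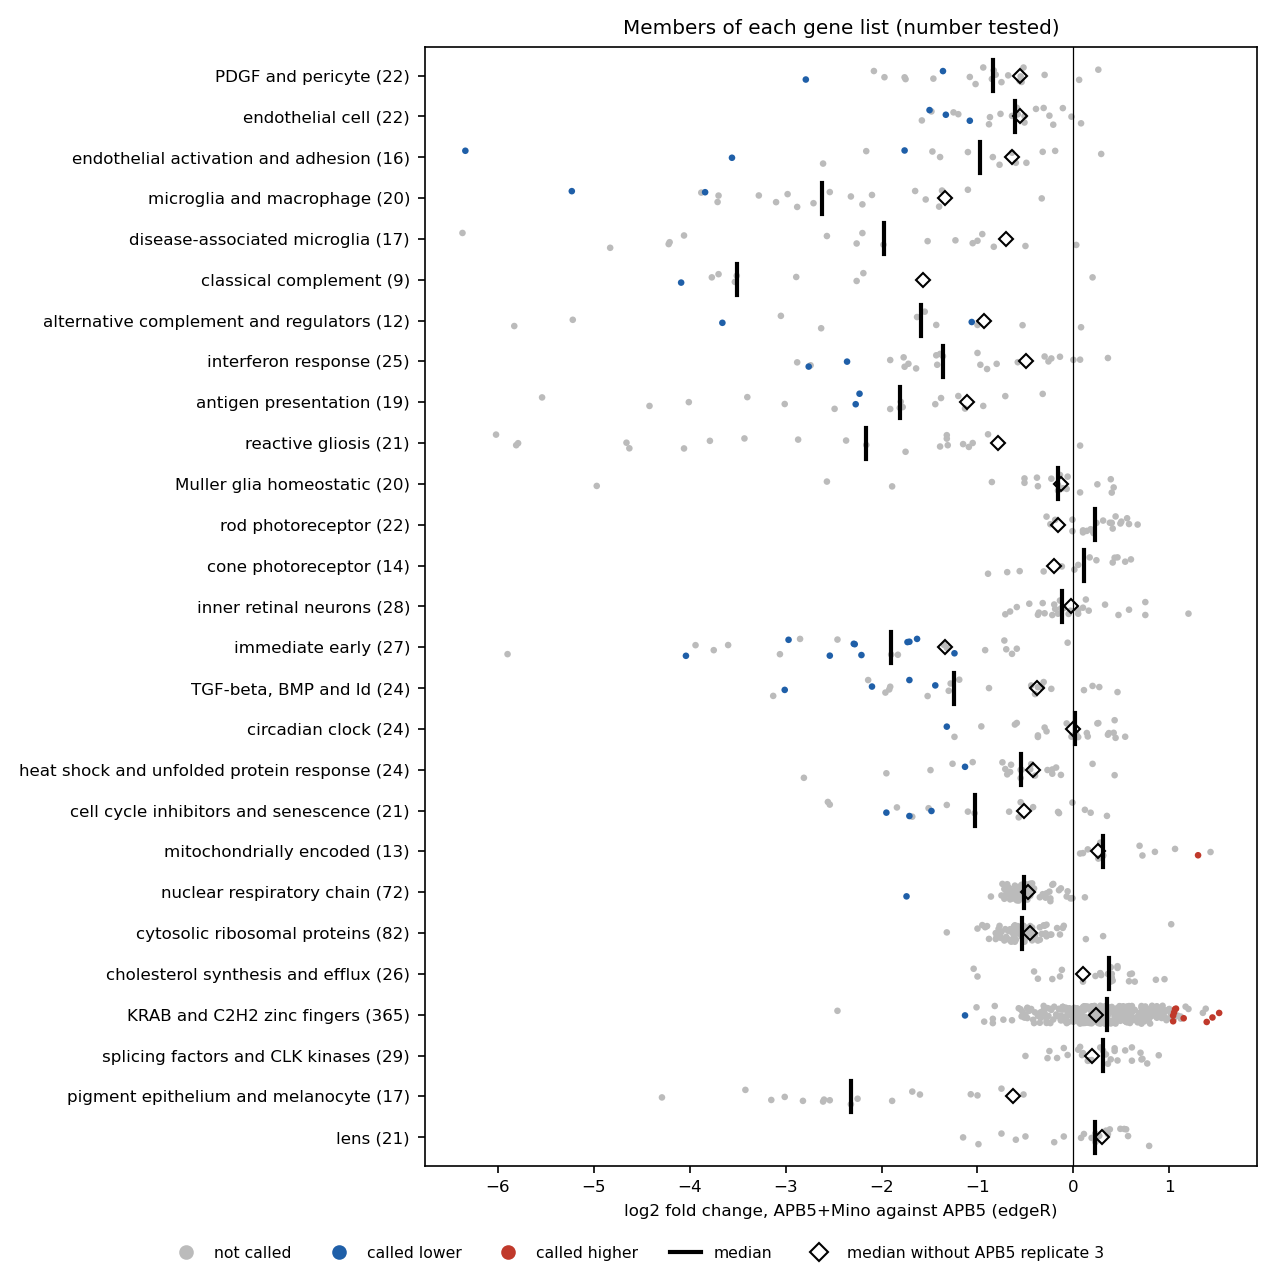
Log2 fold change of each tested member of 27 gene lists (APB5+Mino against APB5, edgeR, 6 libraries), with called members in color, the list median as a bar and the median without APB5 replicate 3 as a diamond. The diamonds lie nearer to 0 than the bars in the immune and gliosis lists, and on the other side of 0 in the rod and cone lists, and bars and diamonds nearly coincide in the endothelial, ribosomal protein and respiratory chain lists.

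The upregulated genes were of other kinds, and few belonged to the lists. Dip2a (chromosome 10, 76095263 to 76181140 on GRCm39), a disco-interacting protein homologue, had the smallest P, with 29.5, 30.4 and 26.8 CPM in APB5 and 56.3, 64.2 and 60.2 CPM in APB5+Mino retinas (log2 fold change 1.05, SE 0.10, adjusted P = 0.0417). Cpne1, a calcium-dependent membrane-binding copine, had 20.6, 23.5 and 22.5 CPM against 42.8, 54.7 and 52.2 CPM (1.15, SE 0.13, adjusted P = 0.043). Nav3, a neuron navigator of the axonal cytoskeleton, had 13.7, 16 and 12.8 CPM against 28.8, 33.4 and 30.3 CPM (1.11, SE 0.12, adjusted P = 0.043 by the edgeR QL test for all 3). In these genes APB5 replicate 3 did not stand apart, and the log2 fold changes without it were 1.00, 1.17 and 1.05. The APB5+Mino values were above every IgG value, which were 29.7 to 31.5 CPM for Dip2a, 23.6 to 29.9 CPM for Cpne1 and 7.48 to 22.8 CPM for Nav3. IgG+Mino retinas had 34.2, 37.4 and 38.7 CPM of Dip2a.

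The 250 bases before the start of Dip2a (10:76181126-76181375 of GRCm39, minus strand) are shown beside those of the downregulated genes above. They were 74.4% G and C, against 49.6% for Glycam1 and 62.0% for Ciart. Capitals would mark E-box, GAS, AP-1 (TGANTCA) or cAMP response (TGACGTCA) elements, searched on both strands, and there are none in this window. The GC box GGGCGG, not marked, occurs 3 times in it and in 53.5% of all promoters, 36.3% of those upregulated and 47.0% of those downregulated.

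Dip2a: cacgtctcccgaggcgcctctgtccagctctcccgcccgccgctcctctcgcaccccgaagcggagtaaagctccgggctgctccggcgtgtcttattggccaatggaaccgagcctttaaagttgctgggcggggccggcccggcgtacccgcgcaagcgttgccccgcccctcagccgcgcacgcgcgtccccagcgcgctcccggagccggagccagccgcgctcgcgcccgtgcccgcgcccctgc

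Some abundant transcripts were among the upregulated genes, though most of these genes were low. Their median level was 3.92 CPM, against 4.74 CPM for the downregulated and 13.1 CPM for all tested genes. Some calls rested on few counts, such as Gm17081 with 0 counts in every APB5 library and at most 49 in an APB5+Mino library. Mir124a-1hg, a host transcript of a neuronal microRNA, had 903, 1120.0 and 627 CPM in APB5 and 1990.0, 2150.0 and 2300.0 CPM in APB5+Mino retinas (1.27, SE 0.24, adjusted P = 0.0461). Pde10a, a cyclic nucleotide phosphodiesterase, had 35.7, 40.8 and 22.8 CPM against 100, 120.0 and 95.6 CPM (1.66, SE 0.22, adjusted P = 0.043). Celsr3, an adhesion receptor of axon guidance, and Kmt2b, a histone H3 methyltransferase, rose by 1.28 and 1.18 (adjusted P = 0.0461 for both by the edgeR QL test). The lowest APB5+Mino values were 247 and 242 CPM and the highest APB5 values 147 and 148 CPM.

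Some upregulated genes serve cell division or DNA repair. Apart from Knl1 and Cntrl they were chosen after their values were seen, and no list of such genes was tested. Knl1, a kinetochore scaffold, had 0.597, 0.803 and 0.642 CPM against 2.36, 3.62 and 3.01 CPM (2.07, SE 0.26, adjusted P = 0.043), and Brca2, a recombination repair gene, had 4.93, 5.4 and 3.53 CPM against 10.8, 15.7 and 12.7 CPM (1.48, SE 0.22, adjusted P = 0.043 by the edgeR QL test for both). Cntrl, Cep192, Cep350, Aspm, Pole and Fancm were called at 1.23, 1.03, 1.19, 1.51, 1.37 and 1.04. After the correction for GC content and transcript length described below, Knl1, Brca2, Cntrl and Pole stood at 1.81, 1.00, 1.05 and 1.20. Cep192 and Fancm then stood at 0.81 and 0.85, short of the fold threshold. Etnppl, an enzyme of phospholipid breakdown, rose from 20.2, 20.8 and 14.3 CPM to 43.4, 38 and 42 CPM (1.14, SE 0.16, adjusted P = 0.043 by the same test).

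**Figure D4:**
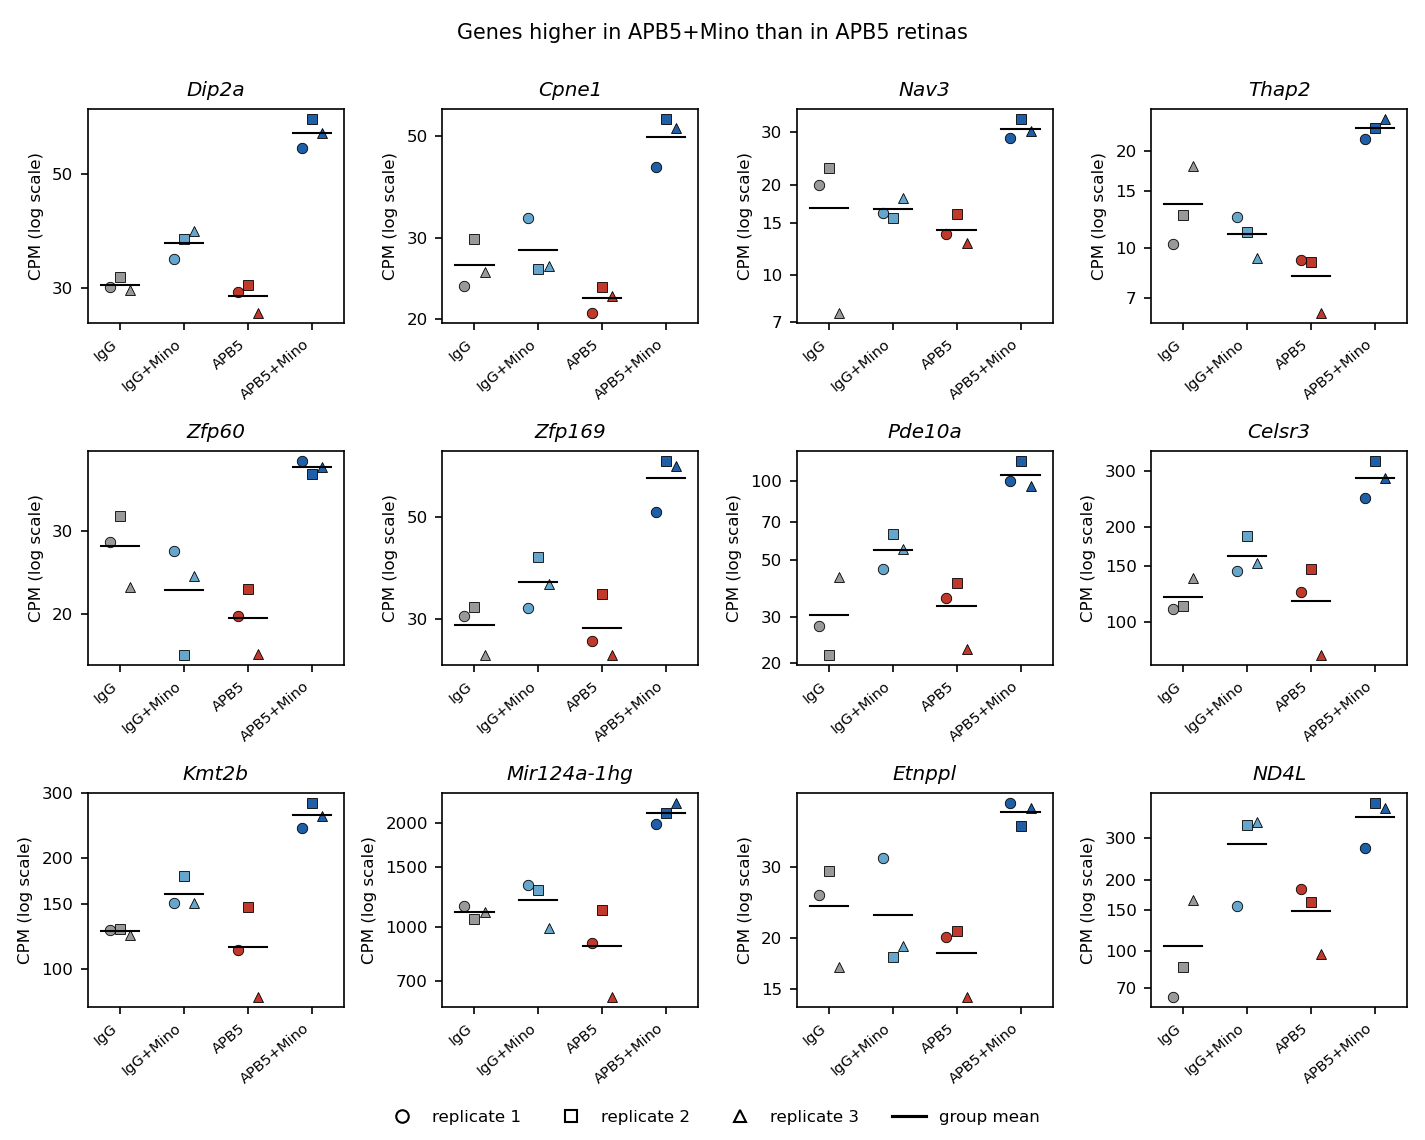
Level of 12 genes called higher in APB5+Mino than in APB5 retinas, in CPM on a log scale, for the 3 libraries of each of the 4 groups, with symbols for replicates 1, 2 and 3 and a bar for the group mean. The 3 APB5+Mino values lie above all APB5 values in each panel, and in every panel but ND4L also above all IgG and IgG+Mino values.

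KRAB and C2H2 zinc finger genes, a large family of mostly repressive DNA-binding proteins, were higher as a group. Of 365 tested, 191 lay entirely higher (52.3%) and 25 entirely lower (6.85%), against 23.5% and 23.1% of all genes. Their median log2 fold change was 0.35, and between 0.24 and 0.44 in the 19 alternatives. By edgeR 9 were called higher, among them Zfp60, Zfp169, Zfp866 and Zfp469 at 1.05, 1.07, 1.06 and 1.15, and Zfp593 was called lower (−1.13), and DESeq2 called 18 higher and 3 lower. Zfp60 had 19.9, 22.7 and 16.5 CPM in APB5 and 42.4, 39.7 and 41.1 CPM in APB5+Mino retinas (SE 0.13, adjusted P = 0.043 by the edgeR QL test). Genes of this family resemble each other in sequence, and reads that fit several of them may be split between copies. Splicing factor genes were higher by smaller steps, with a median of 0.31, 13 of 29 entirely higher (44.8%) and no call by edgeR or DESeq2.

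Long noncoding RNA genes took a larger share of the upregulated than of the downregulated genes. Long noncoding RNA genes made up 66 of the 157 upregulated genes (42.0%) and 21 of the 162 downregulated ones, against 12.6% of all tested genes. Protein-coding genes among the upregulated had a median transcript length of 6829 bases, those among the downregulated of 3245 and all tested of 4388. Over every biotype the median was 4632 bases for edgeR's upregulated genes with a length, which are 75.8% of them, and 3763 for all tested. For the upregulated genes of DESeq2 it was 2868 over every biotype, but 5407 among protein-coding genes. The protein-coding genes that DESeq2 called lower had a median of 3236, so among protein-coding genes the order held in both tools. Over 5 bins of all tested genes by length, the median log2 fold change went from −0.226 in the shortest (67 to 1765 bases) to 0.224 in the longest (6008 to 107543 bases), and from −0.194 to 0.188 without APB5 replicate 3. The share of genes entirely higher went from 10.8% to 41.8%, and that of genes entirely lower from 28.1% to 11.1%. The upregulated calls of edgeR were not in this order, at 30, 19, 8, 18 and 44 from the shortest bin to the longest. Its downregulated calls did follow it, at 45, 44, 32, 20 and 13. When a smooth trend on GC content and length was taken out of each library, edgeR called 43 genes higher and 53 lower. This fit used only genes with a length, which leaves 119 of the 157 upregulated and 154 of the 162 downregulated calls. Dip2a, Cpne1 and Zfp60 then stood at 0.98, 1.30 and 0.94, and Glycam1, Sik1, Cldn5 and Fgf2 remained called lower at −6.22, −1.44, −1.40 and −1.92. The zinc finger list kept its median, at 0.34.

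**Figure D5:**
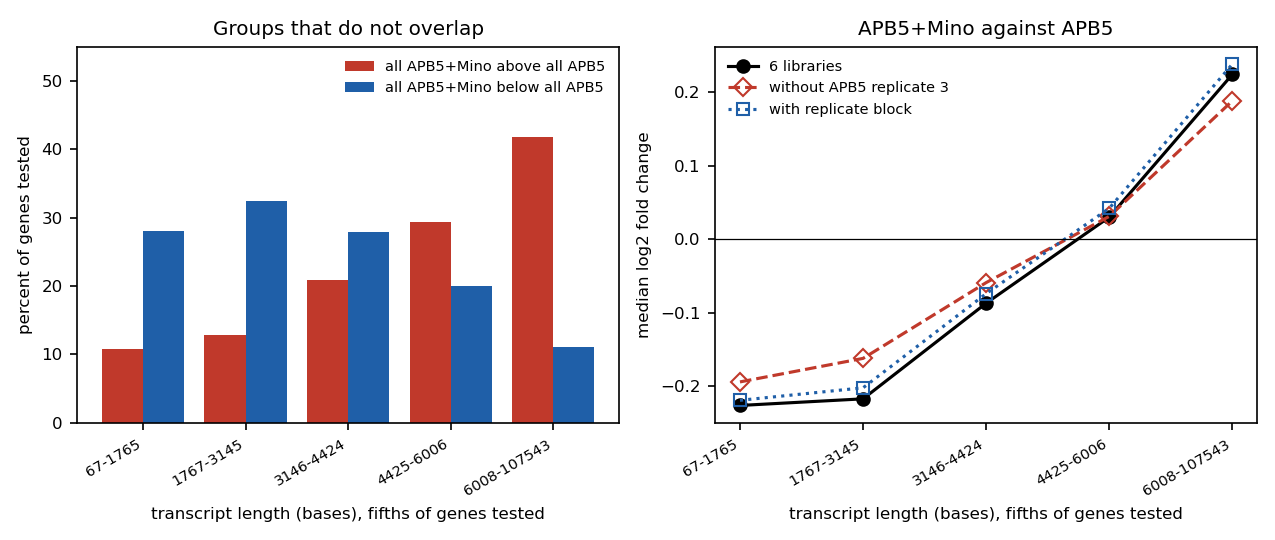
Left, percent of tested genes whose 3 APB5+Mino values lie all above or all below the 3 APB5 values, by bin of transcript length in bases. Right, median log2 fold change of each bin in all 6 libraries, without APB5 replicate 3 and with the replicate number as a block, rising from the shortest to the longest bin in each of the 3 fits.

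Transcripts of the mitochondrial genome and of the nuclear genes that serve the same complexes differed in opposite directions. All 13 mitochondrially encoded genes had a positive log2 fold change, with a median of 0.31. In this list 6 lay entirely higher (46.2%), against 23.5% of all genes. ND4L, a complex I subunit, was the only edgeR call, against 3 higher by DESeq2, with 183, 161 and 97.6 CPM in APB5 and 273, 422 and 401 CPM in APB5+Mino retinas (1.30, SE 0.27, adjusted P = 0.0476, blocked 0.0665 by the edgeR QL test). ATP8 had 548, 301 and 217 CPM against 962, 1040.0 and 881 CPM (1.43, SE 0.33, adjusted P = 0.0514 by the edgeR QL test). ND4L overlaps ND4 and ATP8 overlaps ATP6 on the mitochondrial genome, so reads of these pairs may be shared, and ND4 and ATP6 stood at 0.85 and 0.69. IgG+Mino retinas had 155, 338 and 351 CPM of ND4L, against 64.3, 86 and 165 CPM in IgG retinas. Mitochondrial transcripts took 6.05% to 6.63% of counts in APB5+Mino and 4.19% to 5.96% in APB5 libraries.

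Of 72 nuclear genes of the respiratory chain, 71 had a negative log2 fold change and 54 lay entirely lower (75.0%), against 23.1% of all genes. The median was −0.52 (−0.47 without replicate 3 and −0.37 after the GC and length correction). The only call by either tool was Atp5l (−1.74), a low gene at 0.913 to 2.10 CPM in APB5. Cytosolic ribosomal protein genes moved alike, with 55 of 82 entirely lower (67.1%), a median of −0.54 (−0.34 after the correction), 0 calls by edgeR and 2 lower by DESeq2. Their share of all counts was 0.709% to 0.985% in APB5 and 0.489% to 0.603% in APB5+Mino libraries, and these ranges did not overlap. Mitochondrial ribosomal protein genes had a median of −0.25 and 1 call among 77, Mrpl33 (−1.13). The ribosomal protein and respiratory chain genes are short, with median transcript lengths of 1960 and 2799 bases, and share that feature with the length bins that were lower.

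Cholesterol synthesis and efflux genes leaned upward. Of 26, 11 lay entirely higher (42.3%) and 4 entirely lower (15.4%), against 23.5% and 23.1% of all genes. The median of the list was 0.37, edgeR called none and DESeq2 called 1 lower. Lss, the lanosterol synthase, had 45.4, 48.7 and 20.1 CPM against 71.5, 77.1 and 73.3 CPM (0.95, SE 0.30, adjusted P = 0.0792 by the edgeR QL test). Without APB5 replicate 3 the median of the list was 0.10. Other lists that mark tissue around the retina gave no edgeR call, and DESeq2 called 1 lens gene and 1 gene of cornea, conjunctiva and lacrimal gland lower. They had medians of 0.23 for 21 lens genes and −0.08 for 6 red blood cell genes, whose signs turned under 3 and 8 of 19 alternatives, −1.21 for 4 cornea, conjunctiva and lacrimal genes and −0.27 for 6 genes of skeletal muscle and optic nerve glia. The 13 nuclear-retained noncoding RNAs had a median of 0.12, which turned to −0.06 after the correction and had the other sign under 3 of 19 alternatives, and the 30 laminin and integrin genes of −0.68 (−0.14 without replicate 3).

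Whether minocycline acted differently after APB5 than after IgG was tested as the difference of the 2 effects over all 12 libraries. Of 20064 genes, 0 had a larger increase and 3 (0.015%) a larger decrease in APB5 retinas by the edgeR QL test, namely Glycam1, Fgf2os and Lad1. Lad1, an anchoring filament protein of basement membranes, had 9.63, 15.1 and 18.9 CPM in APB5 and 2.13, 3.11 and 2.69 CPM in APB5+Mino retinas, against 2.61, 2.70 and 2.82 CPM in IgG and 3.20, 4.23 and 3.14 CPM in IgG+Mino retinas. Its groups did not overlap after APB5 and it was not lower in IgG+Mino than in IgG retinas (difference of log2 fold changes −2.82, adjusted P = 0.0225 by that test). At an unadjusted P of at most 0.05 and the same fold, 499 genes were higher and 928 lower, and DESeq2 called 152 and 231. Xist was high in all 3 IgG libraries and in none of IgG+Mino, so in the IgG pair sex and minocycline cannot be told apart. Dip2a and Zfp60 did not differ by this test (0.79, adjusted P = 0.108, and 1.37, adjusted P = 0.117), which does not show that the effects are alike, and neither did Sik1 (−1.29, adjusted P = 0.108) or C4b (−4.09, adjusted P = 0.108).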

How the data were processed

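Retinal RNA of 12 mice was sequenced by the authors as single reads from stranded poly-A libraries, demultiplexed with bcl2fastq 2.20 and aligned with the DRAGEN RNA pipeline to mm39 with its NCBI annotation. The DRAGEN version and the strand setting of counting are not given in the sources used here. The deposited values are read counts per gene without normalization, one mouse per library, so P values measure the spread between mice. The authors' own fold change tables hold their comparisons and were not used, nor were 3 repeated columns that were identical to their first copies and a second copy of the counts.

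Groups came from the sample labels. Genes were placed on chromosomes by symbol (GENCODE vM39, then RefSeq). Counts of the 6 libraries were filtered (filterByExpr), scaled by TMM, fitted with edgeR 4.0.16 in R 4.3.3 (glmQLFit and glmQLFTest, prior count 2, two-sided) and adjusted by Benjamini-Hochberg over all 20281 genes tested, of which 19193 were autosomal or mitochondrial. A further 17 called genes on X, Y or unplaced are not described. SE is the log2 fold change divided by the square root of F. DESeq2 1.42.0 and limma 3.58.1 (voom) served as alternatives, and CPM use TMM over 12 libraries. An exact permutation test of 3 against 3 cannot give a two-sided P below 0.1. Replicates differed by more than sampling noise (chi-square per gene 17.5 to 377). The script was tested on simulated data.

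The labels do not say what a replicate number marks. Deviations from the group means correlated by 0.134, 0.182 and 0.14 in same-number pairs of APB5 and APB5+Mino and by −0.157 to 0.0194 in the others. The numbers were taken to pair the libraries of these groups. Over 12 libraries, same-number pairs of IgG and IgG+Mino correlated by 0.00765, 0.0354 and −0.133, and IgG 1 with APB5 2 by 0.188. The block in the test of the difference therefore rests on numbers that showed no pairing of IgG with IgG+Mino libraries.

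The comparison, the 48 gene lists and the tests were chosen with earlier results of these data known. Genes named are those the study names for this comparison, the 15 smallest P values and 5 highest levels per direction among called, separated genes of at least 1 CPM, up to 4 called members per list and direction and, in lists with no call, the 2 most abundant members. Other genes were named after their values were seen. Promoters are the 250 bases before the first listed start in a RefSeq table of GRCm38.p6, found by exact match in GRCm39. Results of some genes are not reported here.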

Additional observations from a re-analysis of the deposited data

Results flagged for a closer look

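The minocycline effect differed between APB5 and IgG retinas by a test of the difference itself for 3 genes. The differences of log2 fold changes were −6.0 for Glycam1, −5.35 for Fgf2os and −2.82 for Lad1 (adjusted P = 0.0156, 0.0225 and 0.0225 by the edgeR QL test over 12 libraries), and each was lower in 3 of 3 APB5+Mino libraries than in any APB5 library. The value of Glycam1 depends on the prior count, since its APB5+Mino libraries held at most 2 counts. Its levels in IgG+Mino retinas were 0.235, 0.195 and 0.186 CPM, within the IgG range. Fgf2os had 0.28, 0.245 and 0.656 CPM in IgG and 0.833, 0.956 and 0.39 CPM in IgG+Mino retinas.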

How the results depend on the processing

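The counts of called genes depended on the settings. The numbers higher and lower in APB5+Mino retinas were 157 and 162, and 0 and 0 with the replicate block, which pairs libraries by number. They were 603 and 1251 at an unadjusted P, 541 and 399 with no fold threshold, 477 and 969 with DESeq2, 512 and 814 with DESeq2 and the replicate block, 43 and 53 with the GC and length correction, 0 and 0 with that correction and the replicate block, 399 and 708 with Xist as a covariate, 434 and 1103 with all 12 libraries in the fit, 0 and 5 with library size only, and 610 and 710 with voom and quality weights. With no count filter 335 genes were lower. RLE scaling, robust estimation and a filter at 10 counts stayed within 1.5 times in both directions. Leaving out 1 library gave 0 to 673 higher and 0 to 1021 lower. The median log2 fold change of all genes was −0.024, and −0.113 with library size only, −0.01 with the replicate block, −0.01 without APB5 replicate 3 and 0.02 with the GC and length correction. The corrections for GC and length and DESeq2 with the block were added after seeing the data, and the cause of these shifts was not tested. Genes without a length were left out of the corrected fits.

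For the difference between the effects in APB5 and IgG retinas, 0 genes were higher and 3 lower. These numbers were 499 and 928 at an unadjusted P, 152 and 231 with DESeq2, 174 and 291 with DESeq2 and the replicate block, 6 and 11 with the GC and length correction, 84 and 632 with Xist, 8 and 26 with no count filter, and 534 and 457 with voom, and 1 gene was higher with the correction and the replicate block. With the replicate block alone they were 0 and 4. Leaving out 1 library gave 0 to 36 higher and 0 to 75 lower.

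Of the 71 called genes named by rule, 71 lost their call with the replicate block, 66 with library size only, 29 with the GC and length correction and 13 without APB5 replicate 3, and 70, 71, 71 and 71 without APB5 replicate 1 and without APB5+Mino replicate 1, 2 or 3. None reversed. Genes at a few counts, such as Glycam1 and Cfb in APB5+Mino retinas, are limited by depth.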

Other observations

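Several strongly downregulated genes lay outside the lists and were picked after their values were seen. Gpx3, an extracellular glutathione peroxidase, had 75.3, 80.0 and 149 CPM in APB5 and 29.8, 20.9 and 24.7 CPM in APB5+Mino retinas (log2 fold change −2.03, SE 0.30, adjusted P = 0.043). Hmox1, the heme oxygenase that oxidative stress induces, had 17.6, 12.4 and 52.4 CPM against 4.46, 4.74 and 5.10 CPM (−2.54, SE 0.54, adjusted P = 0.0494 by the edgeR QL test for both). Gja1, the main connexin of astrocytes and endothelium, fell by 1.67 and Pdpn, a mucin-like glycoprotein of glia and lymphatics, by 1.76 on the log2 scale.

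The secreted matrix proteins Fmod and Fbln1 had 41.5, 38.4 and 91 CPM and 78.5, 67.4 and 91.2 CPM in APB5, against 10.3, 11.2 and 14.3 CPM and 24.2, 24.5 and 37.6 CPM in APB5+Mino retinas. Cldn19, a claudin, had 4.83, 4.97 and 5.15 CPM against 1.49, 1.41 and 1.62 CPM (−1.72, SE 0.18, adjusted P = 0.043), among the narrowest groups of the called genes named. In the other direction Selenbp1, a selenium-binding protein, had 21.4, 23.4 and 12.3 CPM against 112, 56.8 and 73.5 CPM (2.07, SE 0.32, adjusted P = 0.0447 by the edgeR QL test), and its near copy Selenbp2 was also called higher, so reads may be shared between them.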
